A study of Mytilus galloprovincialis with 16 samples.

Results

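The digestive gland of male *Mytilus galloprovincialis* mussels was compared between stage 1 and stage 2 of male gonad development, using 8 of the 32 channels of a series of 16 dual-color arrays. The members were the channels that the labels assign to a male on the 4 arrays of stage 1 and the 4 arrays of stage 2, with the dye of each male taken from the labels. Each channel held total RNA from the digestive gland of 1 wild male from the Bizerta Lagoon in Tunisia, so the 4 males of a stage were separate animals. A female of the same stage was labelled with the other dye on the same array. No animal was treated. Stage 1 (early) animals were labelled November and stage 2 (development) animals January, so the stage cannot be told apart from the month. The labels and the methods of the study give different years for that January. At each stage 2 males were in Cy5 and 2 in Cy3, so that a constant dye effect cancels in the difference between stages.

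The digestive gland is the organ in which a mussel digests its food, inside the epithelial cells of blind-ending tubules. It also stores reserves, detoxifies metals and organic compounds, and exchanges nutrients with the gonad, which in mussels spreads through the mantle. The stage of a mussel is read from the gonad in the mantle, so the comparison asks how mRNA levels in another organ moved while gametes developed.

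The array carried 1920 cDNA clones, each spotted at 2 places. A clone is a piece of cDNA fixed to the slide, and its signal is the brightness of labelled cDNA bound to it. The files pair no clone with a gene, and the clone sequences were not analysed here. Clones are therefore described by number, level and behaviour, and only 4 are identified. For the same reason neither the labelled tissue nor other cell types could be checked by marker genes. Levels are given as log2 signal after normalization, and a difference of 1 is a 2-fold change. In whole tissue, a change in the amount of an mRNA per cell and a change in the share of the cells that carry it cannot be told apart.

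Between 19.8% and 40.5% of the 3840 clone spots exceeded the local background by 2 of its SDs in the male channels, against at most 1.81% of the 608 blank spots. Male channels correlated with r between 0.774 and 0.918 within a stage and between 0.7 and 0.831 across stages, over clones, which are not independent of each other. Every pair of males within a stage differed by more than duplicate spots of 1 array did. The first principal component held 31% of the variance and separated the stages, from -14.8 to -9.66 at stage 1 and from 6.91 to 16.6 at stage 2. The second held 21.5% and separated the stage 2 males in Cy5 (replicates 1 and 2), at 11.4 and 16, from those in Cy3 (replicates 3 and 4), at -7.27 and -15.3. Dye and pair of arrays cannot be told apart among the stage 2 males. The stage 1 males were not separated by dye on it, at 6.36 and -4.16 in Cy5 and 0.148 and -7.16 in Cy3. The male over female ratios of stage 1 and stage 2 ran in opposite directions over all clones, with r between -0.574 and -0.0598 over the 16 pairs of arrays and r = -0.589 between the stage means. Among the stage 1 arrays these ratios correlated with r between 0.324 and 0.635. Among the stage 2 arrays r was 0.673 and 0.652 where the males had the same dye, but between -0.077 and 0.239 across dyes. The male over female ratios of stage 2 were thus poorly reproduced across dyes, which bears on every difference between the sexes below. The dyes in the labels fix which channel is male, and the directions below follow them. With the sexes exchanged on the stage 2 arrays, 96 clones were called in males, and 0 clones differed in their change between the sexes in limma (132 at an unadjusted p under 0.05).

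The share of clones that gave a signal was not shown to move in males. It was 34.9%, 34.2%, 22.6% and 29.7% of spots above background in the 4 stage 1 males and 40.5%, 29.6%, 19.8% and 27.5% in the 4 stage 2 males. The stages overlapped almost completely, with the highest and the lowest animal both at stage 2. The mean was 30.3% ± 5.69 (SD, n = 4) at stage 1 and 29.3% ± 8.51 (SD, n = 4) at stage 2, a difference of -0.996 percentage points (two-sided exact permutation test, p = 0.857, smallest p possible 0.0286). In the females on the same arrays the share went from 25.7% ± 1.19 to 47.3% ± 6.97 (SD, n = 4 each, exact permutation test, p = 0.0286, the smallest possible), with no overlap. With the sexes exchanged on the stage 2 arrays, the male difference became 16.9 percentage points (exact permutation test, p = 0.0286).

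**Figure D1:**
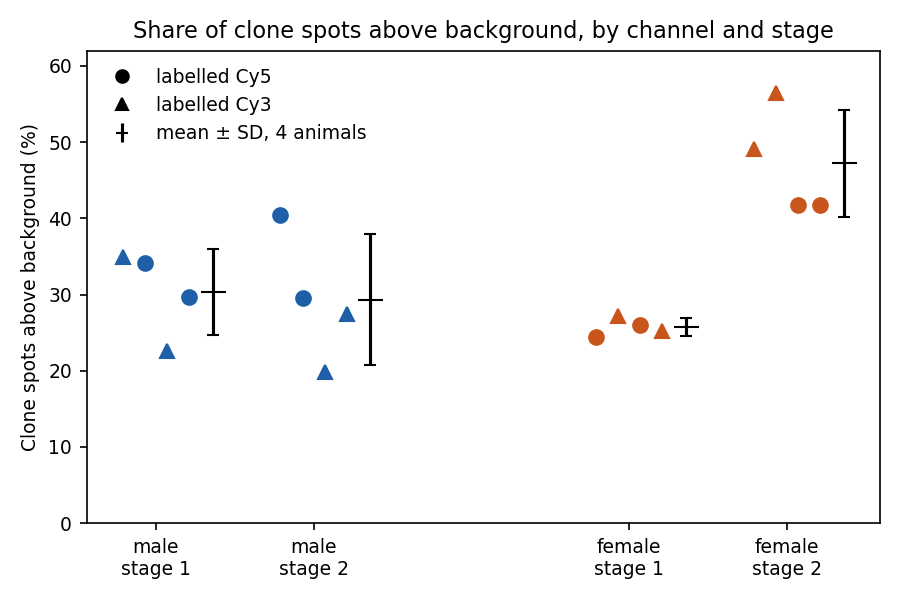
Share of clone spots more than 2 background SDs above the local background (percent, vertical axis) in each animal, by sex and stage. Circles are Cy5 channels, triangles Cy3 channels, and bars the mean ± SD of 4 animals. The males lie between 19.8% and 40.5% at both stages, whereas the stage 2 females lie above the stage 1 females.

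The clones that passed the test in the male gland were more often lower than higher at stage 2. In limma, 48 of 1920 clones (2.50%) had an adjusted p under 0.05, 13 of them higher (0.677%) and 35 lower (1.82%) at stage 2. Over all clones the median change was 0.00896 on the log2 scale, with 984 clones above 0 and 936 below. The normalization gives the arrays a common centre, so a median near 0 was largely set by the processing. The call rested on all 4 stage 1 males: leaving out any of them left 0 clones, with 294, 308, 275 and 344 clones at an unadjusted p under 0.05 without replicates 1 to 4, against 329 (17.1%) with all 8 males. Leaving out stage 2 replicate 1, 2, 3 or 4 left 8, 14, 27 or 10 clones. The lean to falls did not hold in the Cy3 males alone, where 7 clones were called and all were higher, nor without stage 2 replicate 1, with 6 higher and 2 lower. The adjusted p of the 48 clones ran only from 0.0326 to 0.0498. The last clone called changed by -1.75 (SE 0.37), and the next, at an adjusted limma p of 0.0504, by -1.72 (SE 0.36).

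Levels of the 4 stage 2 males lay wholly outside those of the 4 stage 1 males for 226 clones (11.8%), 89 higher (4.64%) and 137 lower (7.14%). A change beyond 2-fold was reached by 73 clones upward and 68 downward, and 12 and 26 of these were among the called clones. The changes ran from -2.87 to 2.33, and neither of these extremes passed the test. The clone with the largest fall measured 8.17, 8.02, 10.8 and 10.6 in the stage 1 males and 6.83, 6.61, 6.19 and 6.53 in the stage 2 males. All of its stage 2 values lay below all of its stage 1 values, but the stage 1 males were spread over more than 2 units, and the SE was 0.663 (limma, adjusted p = 0.0673).

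Brighter clones were called more often. Ranked by mean male level and split into 3 sets of 640 clones, 0.156% of the dimmest set were called, 0.625% of the middle set and 6.72% of the brightest set. Among the 273 clones above background in all 8 males, 9.89% were called, 5 higher and 22 lower. Among the 636 clones above background in none of them, 1 was called, at a change of -0.675 from a mean of 6.77 to a mean of 6.09. Over all clones, many of them near background, the median residual SD was 0.317 in the male and 0.296 in the female channels. Pairs of stage 2 females correlated with r between 0.928 and 0.968, and pairs of stage 2 males with r between 0.774 and 0.918. At stage 1, r lay between 0.712 and 0.858 in females and between 0.774 and 0.852 in males.

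**Figure D2:**
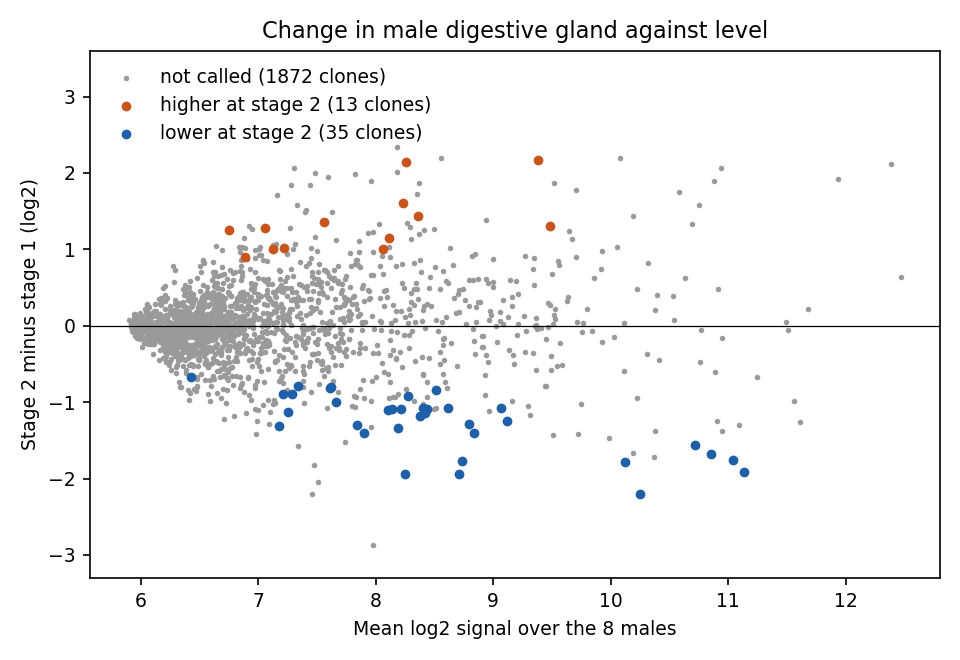
Change of each clone from stage 1 to stage 2 in males (log2, vertical axis) against its mean log2 signal over the 8 males (horizontal axis). Orange points are the 13 clones called higher, blue points the 35 called lower, and grey points the others. The called clones at the highest levels are all falls.

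The 13 clones called higher at stage 2 had a median stage 1 level of 7.19, against 6.71 over all clones. By the mean level over both stages, which includes their rise, 9 of them were in the brightest set of 640 and 4 in the middle set. Their median level in the 4 stage 1 males was 7.33, 6.95, 7.18 and 7.07, and it was 8.25, 8.52, 8.58 and 8.76 in the 4 stage 2 males. This is a description of clones chosen for that difference. Their changes ran from 0.898 to 2.18 with a median of 1.27, and 12 exceeded 2-fold. For 5 of the 13 the stage 1 level was not well above background in any male, so that only a lower bound could be given, and the median with these clones at their bound was 1.14. The median change was 1.11 between males in Cy5 and 1.35 between males in Cy3, and every one of the 13 clones rose in both.

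The 2 clones with the largest rise among those called are given by animal. Clone Myt01-012F08 measured 8.57, 7.88, 8.08 and 8.62 in the stage 1 males and 11.11, 11.42, 9.68 and 9.65 in the stage 2 males. All stage 2 males were above all stage 1 males, and the pair labelled with Cy5 (replicates 1 and 2) was well above the pair labelled with Cy3. The mean rose from 8.29 ± 0.37 to 10.47 ± 0.93 (SD, n = 4 each), a change of 2.18 (SE 0.43) or 4.52-fold (limma, adjusted p = 0.0429). The change was 3.01 within Cy5 and 1.34 within Cy3. The clone rose in the females of the same arrays too, from 9.28, 8.36, 7.84 and 8.56 to 11.29, 11.79, 9.69 and 9.63. The same arrays, replicates 1 and 2, were again the highest, and their females were labelled with Cy3. The female change was 2.09 (SE 0.53, limma, adjusted p = 0.0332), and the difference between the sexes was 0.08 (SE 0.22, limma, adjusted p = 0.882). With the sexes exchanged at stage 2, the male change was 2.31 (limma, adjusted p = 0.0376).

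Clone Myt01-015H09 rose in males with no called change in females. It measured 7.33, 5.94, 7.67 and 7.82 in the stage 1 males and 8.81, 9.35, 9.24 and 9.93 in the stage 2 males, with no overlap, and was above background in 3 of 4 males and then in 4 of 4. The change was 2.14 (SE 0.42) or 4.42-fold (limma, adjusted p = 0.0413), and it was 2.2 within Cy5 and 2.09 within Cy3. The male at 5.94, stage 1 replicate 2, lay below the lowest clone above background on its array, at 6.61. Without that array the change was 1.74 (SE 0.27, limma, adjusted p = 0.064). The females measured 7.81, 5.9, 10.12 and 7.99 at stage 1 and 8.59, 8.08, 8.17 and 8.32 at stage 2. The stage 1 females were spread on both sides of the stage 2 females, with a change of 0.33 (SE 0.73, limma, adjusted p = 0.809). The difference between the sexes was 1.81 (SE 0.55) and did not pass the test (limma, adjusted p = 0.121). With the sexes exchanged at stage 2, the male change was 1.1 and no longer passed (limma, adjusted p = 0.154), and the difference between the sexes was -0.27.

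The 35 clones called lower at stage 2 included the brightest of the called clones. Their median level was 9.01, 8.88, 8.99 and 8.98 in the stage 1 males and 7.74, 7.54, 7.97 and 7.74 in the stage 2 males. The changes ran from -2.21 to -0.675 with a median of -1.14, and 26 exceeded 2-fold. The median was -1.35 between males in Cy5 and -1.02 between males in Cy3, and all 35 fell in both. At stage 2, 3 of these clones were well above background in no male and 1 was so at neither stage. The median of the 31 measured at both stages was -1.18.

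Clone Myt01-007H10 had the largest called fall in males. It measured 11.5, 11.42, 11.42 and 11.08 in the stage 1 males and 9.09, 8.12, 9.48 and 9.9 in the stage 2 males. The stage 1 males were tightly grouped, and every stage 2 male lay more than 1 unit below the lowest of them. The mean fell from 11.35 ± 0.19 to 9.15 ± 0.76 (SD, n = 4 each), a change of -2.21 (SE 0.35) or 4.62-fold lower (limma, adjusted p = 0.0326). Females moved the other way, from 9.23, 9.44, 8.77 and 8.51 to 9.84, 10.2, 10.33 and 10.23, again without overlap. The female change was 1.16 (SE 0.22, limma, adjusted p = 0.0103), and the male minus female change was -3.37 (SE 0.35, limma, adjusted p = 0.00359). At stage 1 each male was above each female for this clone. At stage 2 the males reached 9.9 and the females started at 9.84. With the sexes exchanged at stage 2, the male change was -1.2 (limma, adjusted p = 0.0102) and the difference between the sexes -1.36, which did not pass (limma, adjusted p = 0.524).

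Clone Myt01-014G03 fell in males with little movement in females. It measured 9.38, 9.5, 8.93 and 9.06 in the stage 1 males and 6.73, 6.73, 7.64 and 8.01 in the stage 2 males, where both Cy5 males were lower than both Cy3 males. The clone was above background in 4 of 4 males at stage 1 and in 1 of 4 at stage 2. The change was -1.94 (SE 0.31) or 3.83-fold lower (limma, adjusted p = 0.0326), and -2.55 within Cy5 and -1.33 within Cy3. The females measured 7.79, 7.89, 8.37 and 7.68 at stage 1 and 7.28, 7.48, 8.44 and 8.27 at stage 2, which overlap, with a change of -0.07 (SE 0.29, limma, adjusted p = 0.909). The stage 2 females of the arrays with the Cy5 males, themselves in Cy3, were also the lower pair. The difference between the sexes was -1.87 (SE 0.25, limma, adjusted p = 0.00647). With the sexes exchanged at stage 2, the male change was -1.35 (limma, adjusted p = 0.032) and the difference -0.7, which did not pass (limma, adjusted p = 0.598).

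**Figure D3:**
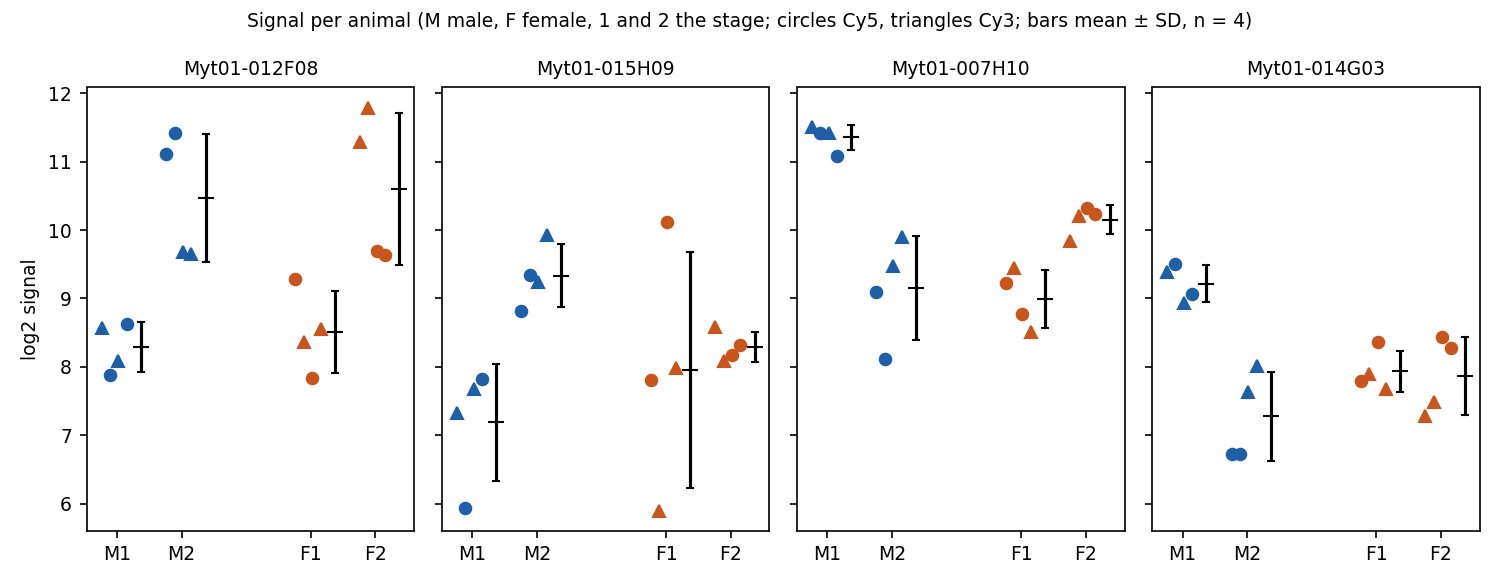
Log2 signal (vertical axis) of the 2 clones with the largest called rise and the 2 with the largest called fall in males, in each male (blue) and each female (orange) at stage 1 and stage 2. Circles are Cy5 channels, triangles Cy3 channels, and bars the mean ± SD of 4 animals. Myt01-007H10 falls in males and rises in females, whereas Myt01-012F08 rises in both.

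The calls of these 4 clones in males depended on the settings, and their direction did not. The clones were chosen as called with no overlap between stages. Their constant direction was thus largely given by that choice and is a description. Over 27 alternative settings and omitted animals, the call of Myt01-012F08 was lost in 18, that of Myt01-015H09 in 20, that of Myt01-007H10 in 12 and that of Myt01-014G03 in 13. Each was lost without any single stage 1 male, where no clone passed. The male change stayed between 1.34 and 3.01 for Myt01-012F08, between 1.1 and 2.85 for Myt01-015H09, between -2.65 and -1.2 for Myt01-007H10 and between -2.55 and -1.14 for Myt01-014G03.

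Sorted by the call in females, the 48 clones fell into sets that behaved differently. In females, 260 clones (13.5%) were called, 150 higher (7.81%) and 110 lower (5.73%) at stage 2. Of the 13 clones higher in males, 5 were called higher in females and none lower. Of the 35 clones lower in males, 14 were called lower in females, 8 higher, and 13 in neither direction. The females shared the arrays with the males, so the 2 sexes are not independent measurements of an array effect.

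The 5 clones called higher in both sexes rose by a median of 1.31 in males and 1.35 in females, and none of the 5 passed the test of a difference between the sexes. Their median level in males was 7.68, 7.41, 7.18 and 7.47 at stage 1 and 9.7, 8.89, 8.78 and 8.77 at stage 2. Stage 2 replicate 1 was the highest of the males and also of the females, at 10.3. The 14 clones called lower in both sexes changed by a median of -1.09 in males and -1.16 in females, and 0 of the 14 passed the test of a difference between the sexes in limma. Of these, the male medians were 8.74, 8.77, 8.94 and 8.74 at stage 1 and 7.68, 7.58, 8.09 and 7.64 at stage 2. Over all clones, 80 (4.17%) passed the test of a difference between the sexes. Both sets were chosen for calls in the same direction in both sexes, so their medians and counts are a description.

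The 8 clones called lower in males and higher in females gave strong signals. Their median level in males was 11.7, 11.3, 11.4 and 11.3 at stage 1 and 9.47, 8.51, 9.94 and 10.1 at stage 2. In females it was 9.44, 9.64, 9.44 and 9.13 at stage 1 and 10.3, 10.6, 10.7 and 10.4 at stage 2. The choice of these clones fixes that the sexes moved apart in direction, and the levels are a description. They also rest on the sexes as labelled at stage 2. The male changes ran from -2.21 to -1.09 and the female changes from 0.724 to 1.29.

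The 13 clones lower in males and called in neither direction in females had a median change of -1.13 in males and 0.13 in females, and 9 of the 13 passed the test of a difference. Their median level in males was 9.01, 8.6, 8.53 and 8.65 at stage 1 and 7.32, 7.24, 7.64 and 7.93 at stage 2. The 8 clones higher in males and not called in females had median changes of 1.21 and 0.383, and 2 of the 8 passed. For the other clones a difference between the sexes was not shown. The sets were chosen by calls in both sexes, so these counts are a description.

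Among the 50 clones with the highest mean male level, 10 were more than 2-fold higher and 14 more than 2-fold lower at stage 2. The test called 6 of the 50 (12%), all falls, against 2.50% of all clones and 9.89% of those above background in all 8 males. These 6 clones had mean male levels of 11 to 12.1 at stage 1 and 9.15 to 10.2 at stage 2, with changes from -2.21 to -1.56. In females all 6 had a change above 0, from 0.614 to 1.16, and 5 were called higher. A female rise was common among the 50, where 31 had a female change above 0. Of the 50, 20 were called higher in females, against 7.81% of all clones.

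The brightest clone of all was not called, at 12.15 ± 0.62 and 12.79 ± 0.49 (SD, n = 4 each), a change of 0.64 (SE 0.35, limma, adjusted p = 0.406). The next moved from between 9.95 and 12.16 in the stage 1 males to between 12.51 and 14.06 in the stage 2 males, a change of 2.11 (SE 0.53) that did not pass the test (limma, adjusted p = 0.0789). That clone had a female change of -0.68. The fifth brightest went from 12.24 ± 0.13 to 10.98 ± 0.57 (SD, n = 4 each) without overlap and missed the threshold closely, with a change of -1.26 (SE 0.27, limma, adjusted p = 0.0511) against 1.31 in females.

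Few clones went from no signal to signal or the reverse. In males, 3 clones were above background in no stage 1 animal and in all 4 stage 2 animals. They were at least 2.76-fold to 3.58-fold higher at stage 2 by the bound that the dim stage sets, and none of the 3 passed the test (limma, adjusted p from 0.142 to 0.239). In the opposite direction, 10 clones were above background in all 4 stage 1 males and in none at stage 2, and they were at least 1.46-fold to 3.39-fold lower by the same bound. Of these, 3 of the 10 were called lower, against 1.82% of all clones, and a clone chosen this way had to fall. The called clones came from 17 of the 20 plates of 96 clones in the identifiers, with at most 6 falls and at most 4 rises on a plate.

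The change from stage 1 to stage 2 differed between males and females for 80 of 1920 clones (4.17%) when tested on the ratios within arrays. The male change was below the female change for 65 (3.39%) and above it for 15 (0.781%). Of the 65, 59 fell in males and rose in females by their fitted values, 17 were called lower in males and 47 were called higher in females. Over all clones, 1.82% were called lower in males and 7.81% higher in females. The male median of the 65 was 9.03, 9.22, 8.93 and 9.07 at stage 1 and 8.08, 7.45, 8.41 and 8.48 at stage 2. The female median was 7.74, 7.71, 7.81 and 7.74 at stage 1 and 8.65, 8.62, 9.1 and 8.7 at stage 2. These clones were chosen for that difference, so their levels are a description. Tested over all clones, the sexes differed in 0 clones at stage 2 in limma (289 at an unadjusted p under 0.05). The same fit gave 62 clones at stage 1, with fewer, 242, at an unadjusted p under 0.05. An absence of differences at stage 2 was thus not shown.

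The clone with the smallest p for this difference measured 8.27, 8.54, 8.71 and 8.85 in the stage 1 males and 7.48, 6.85, 7.26 and 7.21 in the stage 2 males. The females measured 6.99, 6.67, 7.45 and 7.28 and then 7.91, 7.8, 7.9 and 7.71. Neither sex overlapped between stages, and the clone was above background in 4 of 4 males at stage 1 but 1 of 4 at stage 2, and in 1 and then 4 of the females. The difference of the changes was -2.13 (SE 0.18, limma, adjusted p = 0.0026). The clone after it gave -2.09 (SE 0.19, limma, adjusted p = 0.0026), from a male change of -1.34 and a female change of 0.74.

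The 15 clones with the male change above the female change had male medians of 7.56, 7.84, 7.69 and 7.26 at stage 1 and 8.31, 8.52, 8.04 and 8.39 at stage 2. Their female medians were 7.99, 8.36, 8 and 7.9 at stage 1 and 7.73, 7.51, 7.64 and 7.88 at stage 2. Of the 15, 14 rose in males and fell in females by their fitted values. The test called 2 of them higher in males and 4 lower in females, against 0.677% and 5.73% of all clones. These clones too were chosen for the difference between the sexes.

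Without any single array the count of 80 lay between 57 and 80 clones. It depended on the labels of the sexes at stage 2. With those exchanged, none of the 80 passed, while of the 96 clones then called in males 41 were higher and 55 lower, and 29 were among the 48. The fall of the 65 clones also differed in size with the dye of the males, with a median change of -1.49 between Cy5 males and -0.479 between Cy3 males. Among the stage 2 males the dye went with the pair of arrays, so dye and pair cannot be told apart among them. With dye as a covariate, 114 clones differed between the sexes, all of the 80 among them. Over all clones, the male change differed between the dyes for 4 clones in limma.

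**Figure D4:**
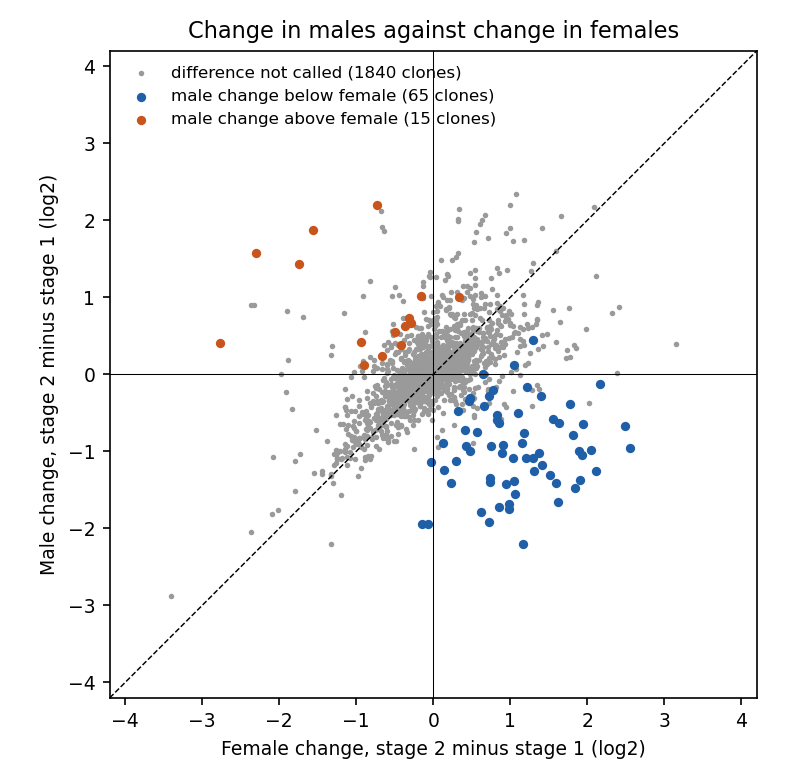
Change from stage 1 to stage 2 in males (log2, vertical axis) against the change in females (log2, horizontal axis) for 1920 clones, with a dashed line where both are equal. Blue points are the 65 clones whose male change was below the female change, orange points the 15 above it, and grey points the others. Most blue points lie below 0 in males and above 0 in females.

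In the fit of these 8 arrays the sexes differed at stage 1 for 55 clones higher in males (2.86%) and 7 lower (0.365%). Of the 55, 54 had a male change below 0 toward stage 2, with a median of -0.998. In males 16 (29.1%) were called lower, against 1.82% of all clones. In females the median change of the 55 was 0.982, and 40 were called higher, against 7.81% of all clones. Their median male level was 9.17, 9.24, 8.84 and 9.07 at stage 1 and 8.37, 7.82, 8.41 and 8.66 at stage 2, where the females measured 8.65, 8.84, 9.1 and 8.7. These clones were chosen for a high male level at stage 1, so their change is a description and no test. Of the 55, 51 were also among the 65 clones whose male change was below the female change. The 7 clones lower in males at stage 1 had a median male change of 0.286, and none of the 7 was called in males.

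Levels in males of the later stages are given as a description, from a normalization of all 16 arrays in which arrays 2 and 4 of stage 4 were averaged and counted as 1 replicate. The median of the 13 clones called higher was 7.11 ± 0.16 at stage 1, 8.49 ± 0.2 at stage 2, 7.86 ± 0.34 at stage 3 (SD, n = 4 each) and 7.79 ± 0.23 at stage 4 (SD, n = 3). That of the 35 clones called lower was 8.91 ± 0.06, 7.73 ± 0.18, 7.86 ± 0.56 and 7.95 ± 0.57 at the same stages. The clones called lower thus stayed near their stage 2 level on average, with a wider spread between males, and those called higher lay between their stage 1 and stage 2 levels.

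Single clones took different courses. Myt01-015H09 was at 9.28 ± 0.46 at stage 2, 9.23 ± 0.78 at stage 3 (SD, n = 4 each) and 9.76 ± 0.66 at stage 4 (SD, n = 3), against a stage 1 mean of 7.16. Myt01-012F08 was at 8.86 ± 0.81 at stage 3 and 8.89 ± 0.55 at stage 4, nearer to its stage 1 mean of 8.25 than to its stage 2 mean of 10.5. Myt01-007H10 was lower still at stage 3, at 8 ± 0.91, and 8.57 ± 0.36 at stage 4. Myt01-014G03 was at 7.66 ± 0.58 and 7.68 ± 0.23, above its stage 2 mean of 7.26 and below its stage 1 mean of 9.17.

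**Figure D5:**
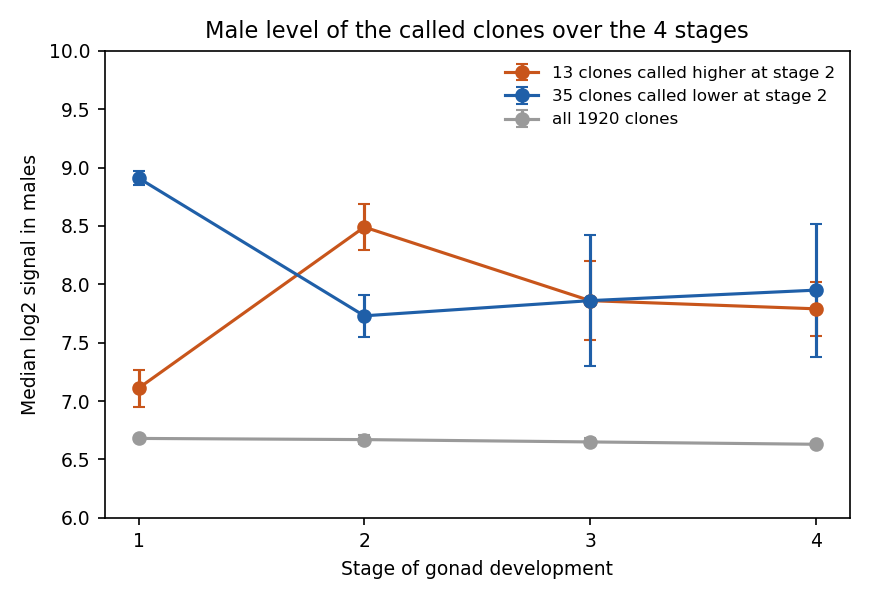
Median log2 signal in males (vertical axis) of the 13 clones called higher (orange) and the 35 called lower (blue) at stage 2, and of all 1920 clones (grey), over the 4 stages of gonad development (horizontal axis). Bars are the SD over 4 males, or over 3 replicates at stage 4. After stage 2 the orange line comes down to 7.86 and 7.79 while the blue line is at 7.86 and 7.95.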

How the data were processed

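Intensity values were deposited as scanner output, one table per array, with the mean foreground and median background of each spot in the Cy5 and the Cy3 channel. The deposited log2 ratios of the series matrix were made by the authors with limma, and the sources used here give no version of it. These ratios served as an alternative. They correlated with female over male scanner ratios at r between 0.997 and 1. Arrays were normalized with limma 3.58.1 in R 4.3.3: normexp with offset 50, loess within arrays with blank and alignment spots at weight 0, and Aquantile between arrays. Both spots of each clone were averaged, and the male channels of 4 stage 1 and 4 stage 2 arrays were compared with lmFit and eBayes, two-sided, with Benjamini-Hochberg adjustment over 1920 clones and a threshold of 0.05. Female changes were fitted in the same way. Differences between the sexes were tested on male over female ratios within arrays. A clone was taken as above background where at least 1 of its 2 spots exceeded the local background median by 2 of its SDs. Where a clone was above background in no male of a stage, a bound was set against the lowest signal well above background on each array. The clone's own signal was used instead where it was higher than that.

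The clones identified were those with the 2 largest rises and the 2 largest falls among called clones with no overlap between stages. All others are given without identifiers. Gene lists and cell type markers had been drawn up for the case that clones could be named, and could not be used. The members and lists were chosen with earlier results of these data known. Sensitivity was examined for background correction, normalization, dye, samples in the fit, a replicate block, array weights, filters on dim clones, the B statistic and each animal left out. The fits were tested on simulated data. Depth is not defined for arrays, and the number of arrays limits the precision.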

Additional observations from a re-analysis of the deposited data

Results flagged for a closer look

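Of 50 groups of 4 values examined by Dixon's test for an extreme value, 2 gave one, where about 2.5 would be flagged by chance. The agreement between duplicate spots in the male channel was lowest in stage 1 replicate 3, at r = 0.786 against 0.897 to 0.911 in the other stage 1 males. That male also had the lowest share of spots above background at stage 1. In the 65 clones whose male change was below the female change, the female median of stage 2 replicate 3 was 9.1, against 8.62 to 8.7 in the other stage 2 females.

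The change from stage 1 to stage 2 differed between the sexes for 80 clones in limma. Clone Myt01-007H10 differed by -3.37 and Myt01-014G03 by -1.87, as male minus female change. The 2 unnamed clones with the smallest p differed by -2.13 and -2.09. All 4 rest on the sexes as labelled at stage 2.

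Alignment spots, which carry no clone and entered no comparison, were above the 95th percentile of the blank spots in the male channel of all 8 arrays.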

How the results depend on the processing

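The 48 changed clones in males became 81 (16 higher) with median centring, 19 (3 higher) with print-tip loess, 107 with both channels in one fit, 79 with all 4 stages in one fit, 84 with array weights, 161 with spots apart, 31 at a B statistic over 0, 96 with the sexes exchanged at stage 2, and 7, all higher and none of them among the 48, in Cy3 males alone. It was 0 in limma with no background correction (287 at an unadjusted p under 0.05), plain subtraction (323), no between-array normalization (259), Cy5 males alone (278) and a robust trended fit (302). It lay between 0 and 27 with 1 animal left out. The 4 other settings gave 36 to 60. A called clone was called in 6 to 17 of 28 settings (median 11.5). Whether the same replicate number paired males could not be told (r of deviations 0.0357 to 0.135, 3 of 4 highest with their own number). With the replicate block, 0 clones changed (330 at an unadjusted p under 0.05) and 88 differed between the sexes.

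The 80 clones with a different change between the sexes became 130 with median centring, 122 without dim clones, 206 with spots apart and 0 with the sexes exchanged, and 57 to 80 with 1 array left out. The difference of -0.996 points in spots above background was 7.74 (exact permutation test, p = 0.0571) against the 95th percentile of blank spots, 16.9 with the sexes exchanged, 3.06 in Cy5 alone, and -4.7 to 2.17 with 1 animal left out, above 0 without stage 1 replicate 1 (0.521) or 2 (0.304) or stage 2 replicate 3 (2.17).

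The difference between the sexes for Myt01-012F08 turned to -0.06 with no background correction and -0.29 with median centring, and lay between -0.08 (without stage 1 replicate 1) and 0.24 (without stage 1 replicate 3) with 1 array left out, at 0 without stage 1 replicate 2. That for Myt01-015H09 was -0.27 with the sexes exchanged, where the differences for Myt01-007H10 (-1.36) and Myt01-014G03 (-0.7) were no longer called. That of Myt01-015H09 passed without dim clones and with spots apart. For none of these changes was the cause tested. The 27 and 22 alternatives for each clone turned no other direction.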
